A study of Ovis aries with 6 samples.

Results

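The ATP-binding cassette (ABC) transporters of the ovine ovary were read across ovarian cell types as every gene whose symbol in the deposited gene lists is ABC, a family letter from A to G and a number. The rule found 40 of 30574 genes, with 10 of family A, 8 of family B, 10 of family C, 4 of family D, 1 of family E, 2 of family F and 5 of family G. The rule reads symbols and uses no measured value.

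ABC proteins bind and hydrolyse ATP, and most of them use it to move a substrate across a membrane. Some are efflux pumps that return drugs and metabolites to the blood, as at the blood-brain and blood-testis barriers. Others hand cholesterol and phospholipids to lipoproteins, carry fatty acids into peroxisomes, serve iron and haem handling in mitochondria, or set the opening of potassium channels, and families E and F carry no membrane part and act on ribosomes. In the ovary, vessels deliver lipoprotein cholesterol and hormones to follicles that have no vessels within their granulosa layer, so that transport at the endothelium and sterol handling in theca and granulosa cells both bear on steroid production.

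The cells came from 6 Hu ewes, a Chinese breed known for prolificacy, taken in estrus that was checked with a ram. The high litter size group (HLS1, HLS2 and HLS3) held 3 ewes with litters of at least 3 lambs, and the low litter size group (LLS1, LLS2 and LLS3) held 3 ewes with litters of fewer than 2 lambs. Each ewe gave 1 whole ovary, dissociated with collagenase and trypsin, and 1 droplet library in which every captured RNA molecule carries a unique molecular identifier (UMI). The labels name no treatment or genetic change, the groups were formed by lambing records alone, and a library is a mixture of every structure of 1 ovary. Each ewe stands for 1 replicate.

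The deposited counts held 7992 to 9135 barcodes and 43329214 to 75549906 UMI per ewe, and 36457 cells were retained after filtering. Cells were clustered again without the ABC genes, and each cluster was named with the ending -like from marker genes. The 5 main types were endothelial-like (14881 cells, 40.82% of those retained), stromal-like with theca-like (5504), granulosa-like (3335), immune-like (3194) and perivascular-like (2677). A further 4582 cells stayed unnamed, 4405 of them in 1 cluster led by ACTA2, TAGLN and COL1A1. The names rest on other genes of the same cells. In every comparison UMI were summed per ewe and type, a level is given in CPM, the UMI of a gene for every 1000000 UMI of that type in that ewe, a mean is over ewes with its SD, and a log2 difference is an edgeR estimate with its standard error and a Benjamini-Hochberg adjusted p over all genes tested. The counts are 3' tags, so levels are compared between cell types for 1 gene and not between genes. Ewes HLS2 and LLS1 stood apart: a cluster led by COL15A1, FAM167B and ESM1 held 59.52% and 69.63% of their endothelial-like cells and far smaller shares in the other 4 ewes, and results that rest on these ewes are given with and without them. Between 13 and 28 cell barcodes were shared by any pair of libraries, at most 0.32% of the smaller library.

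All 40 ABC genes had at least 1 UMI in the retained cells. The highest totals over these cells were 180359 UMI for ABCG2 and 67245 UMI for ABCB1, and 22 genes had more than 1000 UMI. At the other end were ABCC12 with 2 UMI, ABCB5 with 3, ABCG5 with 4, ABCG4 with 10, ABCA13 with 12 and ABCB11 with 16. The filter on low counts kept 26 ABC genes of 14020 genes for the comparison of the 5 main types, and a gene could pass it through a single type in which it was high. The 14 genes that it removed had at most 244 UMI each and were, besides these 6, ABCA12, ABCC6, ABCC11, ABCC8, ABCA7, ABCG8, ABCA4 and ABCC2. Among them are the bile salt pump ABCB11, the retinal transporter ABCA4, the keratinocyte lipid transporter ABCA12 and ABCC8, the potassium channel subunit of insulin-secreting cells.

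**Figure D1:**
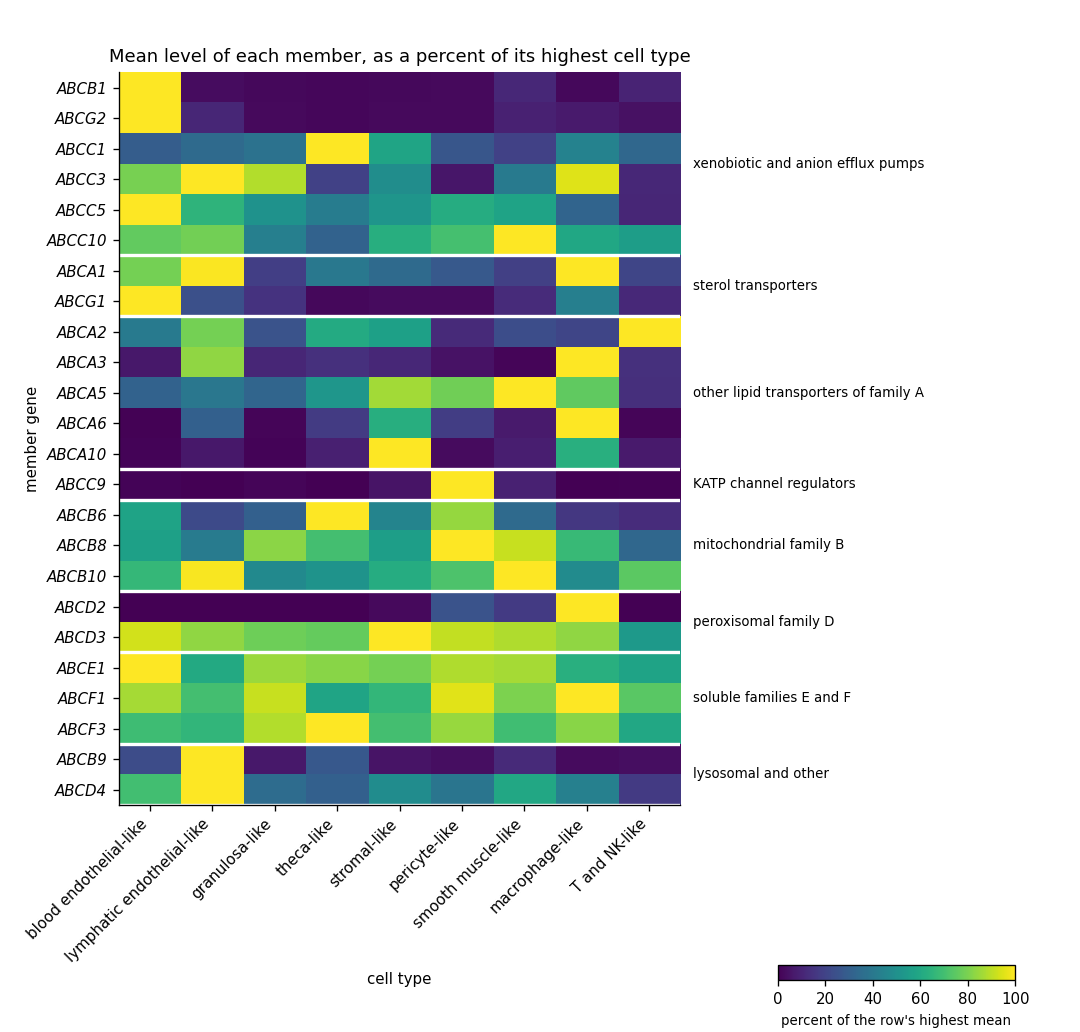
Mean level over ewes of 24 of the ABC genes that passed the filter (rows, grouped by role) in 9 cell types (columns), each shown as a percentage of that gene's highest mean among these types (colour scale from 0 in dark blue to 100% in yellow). ABCB1, ABCG2 and ABCG1 have their highest mean in blood endothelial-like cells, ABCC9 in pericyte-like cells, ABCA10 in stromal-like cells, ABCC1 in theca-like cells and ABCD2 in macrophage-like cells.

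Of the 26 ABC genes tested, 12 were higher and 5 lower in endothelial-like cells than in the mean of the other 4 types, where 33.5% and 32% of all genes tested passed in the same directions. In granulosa-like cells 1 was higher and 13 were lower (29.9% and 28.9% of all genes). Stromal-like cells had 8 higher and 5 lower genes (30.4% and 29.6%), perivascular-like cells 7 higher and 9 lower (24.7% and 25.2%), and immune-like cells 10 higher and 5 lower (31.4% and 36.5%). The median log2 difference of the 26 genes was 0.22 for both endothelial-like and immune-like cells, -0.04 for both stromal-like and perivascular-like cells and -0.53 for granulosa-like cells, against medians of all genes between -0.09 and 0.00. These counts include calls of ABCD2, ABCA3 and ABCB9, which are given no weight because of the filter, as stated below. ABCD2 is among the 13 lower granulosa-like genes, with 0 UMI there. With a limit of 3 counts in place of its fitted value, the granulosa-like median was -0.53. The granulosa-like counts and median lay on the lower side, which is a description. DESeq2 called 11 higher and 8 lower in endothelial-like cells. With library size alone in place of TMM scaling, 6 were higher and 8 lower in immune-like cells, where the median of all genes moved to -0.36.

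The drug efflux pumps ABCB1 (P-glycoprotein) and ABCG2 (breast cancer resistance protein) were highest in endothelial-like cells. ABCB1 reached 493, 288 and 757 CPM in HLS1, HLS2 and HLS3, and 147, 606 and 718 CPM in LLS1, LLS2 and LLS3. In granulosa-like cells its level lay between 5.30 and 18.7 CPM, in stromal-like cells between 3.89 and 22.7, in immune-like cells between 10.2 and 39.5 and in perivascular-like cells between 2.38 and 84.8. The lowest endothelial-like ewe therefore lay above the highest ewe of every other main type. Its log2 difference was 5.09 ± 0.20 (edgeR, adjusted p = 2.1e-17).

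ABCG2 followed the same order, with 1611, 578 and 2187 CPM in HLS and 369, 1803 and 1785 CPM in LLS. Its mean in endothelial-like cells was 1389 ± 736 CPM (SD, n = 6), and the log2 difference was 4.83 ± 0.19 (edgeR, adjusted p = 8.09e-18). For both pumps HLS2 and LLS1 were the lowest ewes. Without these 2 ewes the log2 differences were 5.11 ± 0.23 for ABCB1 and 4.97 ± 0.20 for ABCG2.

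The endothelial-like cells formed 7 clusters, and the values that follow describe them without a test, since clusters are drawn from the same cells. ABCB1 averaged 709 CPM in a cluster led by PPP1R1B and CA4 and 834 CPM in a cluster led by SELP, the leukocyte adhesion gene of venous endothelium. It averaged 399.8 CPM in the cluster led by CXCL12 and GJA5, genes of arterial endothelium, and 285 CPM in the cluster led by ADAMTS5 and APLN. In the COL15A1 and ESM1 cluster that filled HLS2 and LLS1 the mean was 122 CPM, and in the lymphatic cluster it was 16.4. ABCG2 took means of 2229, 2219, 585, 1181, 248 and 155 CPM in the same 6 clusters, so that the order was close but the ADAMTS5 and APLN cluster stood above the CXCL12 and GJA5 cluster. The remaining cluster, led by CDH13, NDRG1 and ACKR1 among named genes, had at least 10 cells in 4 ewes, and 63.91% of its cells came from LLS2. Over these 4 ewes it averaged 294 CPM of ABCB1 and 1186 of ABCG2.

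Within the SELP cluster the ewes lay closer together than over all endothelial-like cells, and in it ABCB1 ranged from 668 to 1009 CPM and ABCG2 from 1828 to 2661 over all 6 ewes, HLS2 and LLS1 included. In the COL15A1 and ESM1 cluster ABCB1 ranged from 88.6 to 169 CPM over the 5 ewes with at least 10 cells in it. Both clusters with ABCB1 and ABCG2 among their 10 leading genes, PPP1R1B with CA4 and SELP, held 81.33%, 20.44% and 72.11% of the endothelial-like cells of HLS1, HLS2 and HLS3, and 9.36%, 52.79% and 73.34% of those of LLS1, LLS2 and LLS3. HLS2 and LLS1, with the lowest whole-type levels, had the lowest shares, whereas HLS1, with the highest share, had less ABCB1 than HLS3, LLS2 and LLS3. The clusters were picked for having the pumps among their leading genes, and the part of this share was not tested.

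**Figure D2:**
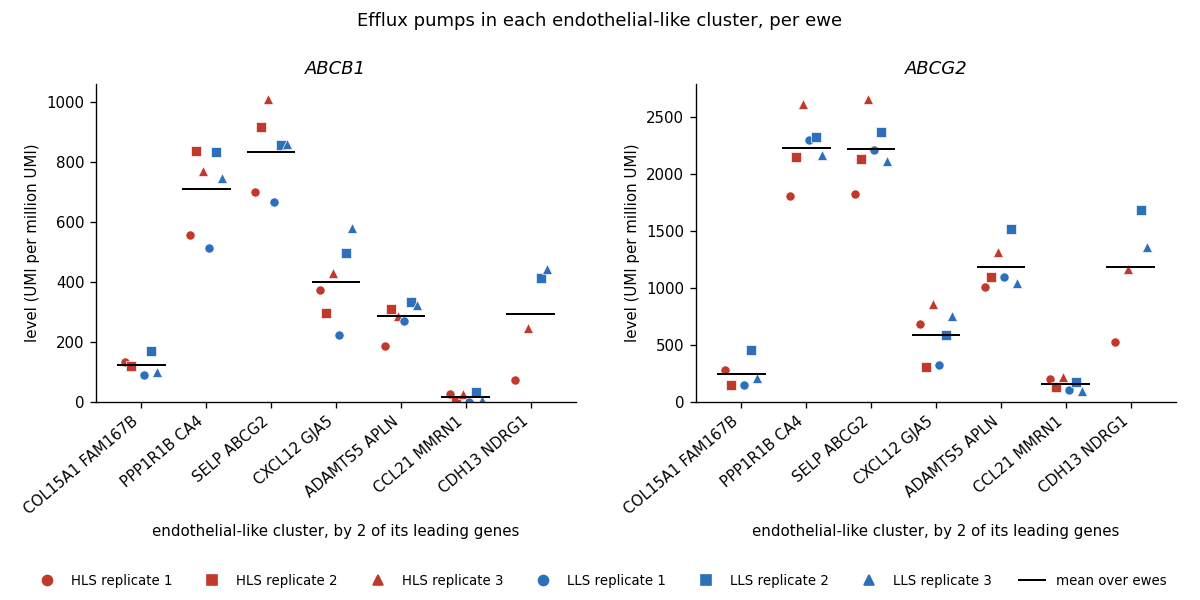
Levels of ABCB1 (left) and ABCG2 (right) in CPM on linear axes in each endothelial-like cluster, named by 2 of its leading genes, with a point per ewe with at least 10 cells in the cluster (red for HLS, blue for LLS) and a line at the mean over ewes. The clusters led by PPP1R1B with CA4 and by SELP have the highest points of each ewe, and the CCL21 and MMRN1 (lymphatic) cluster has means of 16.4 and 155 CPM.

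Traces of both pumps appeared in the other types together with other endothelial RNA. All 12 endothelial marker genes had UMI in every ewe in granulosa-like, stromal-like, perivascular-like and immune-like cells. As the median over ewes of the level relative to blood endothelial-like cells of the same ewe, granulosa-like cells had 2.63% for ABCB1, 2.56% for ABCG2 and 2.52% for CLDN5, the tight junction gene of endothelium. Stromal-like cells had 2.25%, 3.01% and 2.10%, and perivascular-like cells 2.97%, 2.91% and 3.38% for the same genes. The summed level of the 12 endothelial markers relative to blood endothelial-like cells reached 3.04% for granulosa-like, 4.91% for stromal-like and a higher 7.66% for perivascular-like cells, above the pump shares. Pump RNA made in these cells and endothelial RNA in their droplets cannot be told apart. The highest perivascular-like level of ABCB1, 84.8 CPM, belonged to HLS1, whose smooth muscle-like cells had 211 CPM of ABCB1, 464 of ABCG2 and 89.4 of CLDN5.

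The ratio of both pumps took other values in immune-like cells. The ratio of ABCG2 UMI to ABCB1 UMI was 1.99 to 3.27 in blood endothelial-like cells and 2.06 to 5.04 in granulosa-like cells. In macrophage-like cells the ratio was 4.23 to 14.6, with ABCG2 at 179, 99.6 and 113 CPM in HLS and 70.6, 74.9 and 76.7 in LLS, against a mean of 11.7 ± 4.39 CPM for ABCB1. Relative to blood endothelial-like cells, macrophage-like cells had a median of 8.005% for ABCG2, 2.78% for ABCB1 and 17.9% for the 12 endothelial markers summed, and the part of endothelial RNA in these levels was not tested. In T and NK-like cells the ratio was 0.31 to 1.91, with ABCB1 at 61.8, 29.5 and 37.4 CPM in HLS and 22.9, 108 and 48.2 in LLS. Their medians relative to blood endothelial-like cells were 11.1% for ABCB1, 2.45% for ABCG2 and 7.06% for the 12 markers. Between both immune types, 3 of 12 ABC genes tested were higher and 2 lower in macrophage-like cells (29.9% and 30.1% of all genes), against 4 and 1 with DESeq2 and 5 and 1 with library size alone. The higher genes include ABCA6, whose call is given no weight because of the filter, as stated below. ABCB1, 1 of the 2 lower genes, could have passed the filter through T and NK-like cells alone. Its log2 difference of -2.22 ± 0.21 is therefore a description, and its call is given no weight. The endothelial gene CLDN5 was lower in macrophage-like cells by 1.30 (edgeR, adjusted p = 8.53e-04), while the ABCG2 difference of 0.71 ± 0.32 did not pass (edgeR, adjusted p = 0.0663). When cells were named one by one, the ABCB1 call was lost. The mitochondrial transporter ABCB10 was the other lower gene, at -0.74 ± 0.26 (edgeR, adjusted p = 0.0198), and it was not called with DESeq2.

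Among the other efflux pumps, ABCC5, which exports cyclic nucleotides and organic anions, was higher in endothelial-like cells. It stood at 35.6, 26.9 and 40.7 CPM in HLS and 31.1, 44.1 and 42.1 in LLS, against means of 19.1 ± 2.42 in granulosa-like and 8.64 ± 1.92 in immune-like cells (log2 difference 1.22 ± 0.10, edgeR, adjusted p = 1.63e-11). Its ranges in endothelial-like and perivascular-like cells overlapped, the latter reaching 27.2 CPM. ABCC5 was lower in immune-like cells than in the other types by 1.16 ± 0.14 on the log2 scale (edgeR, adjusted p = 2.9e-08). ABCC3, a pump for glucuronide conjugates and bile salts, was higher in endothelial-like cells too, at 3.76, 8.84 and 7.19 CPM in HLS and 10.9, 7.98 and 6.51 in LLS (1.04 ± 0.24, edgeR, adjusted p = 4.39e-04). ABCC10, a multidrug pump, was also called higher there, by 0.48 ± 0.14, while ABCC1, the glutathione conjugate and leukotriene pump, was lower by 0.45 ± 0.14 on the log2 scale.

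The endothelial-like counts included both sterol exporters and a lysosomal pair. ABCB9, the lysosomal peptide transporter, had 4.59, 3.17 and 3.83 CPM in HLS and 3.65, 4.77 and 3.67 in LLS, above 0.44 ± 0.50 in immune-like cells. ABCB9 could have passed the filter through endothelial-like cells alone. Its log2 difference of 2.17 ± 0.25 is therefore a description, and its call is given no weight. ABCD4, which takes part in the lysosomal export of vitamin B12, had 13.9, 17.6 and 13.8 CPM in HLS and 18.7, 14.9 and 19.8 in LLS (0.90 ± 0.12, edgeR, adjusted p = 5.31e-07). All 6 endothelial-like values of ABCD4 lay above the granulosa-like and stromal-like ranges of 6.18 to 10.8 and 8.14 to 11.03, but perivascular-like cells reached 14.3.

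Genes that share the barrier setting with these pumps were read as a list of 11, of which 10 were in the deposited gene lists and 8 were tested. In endothelial-like cells 6 were higher and 1 lower (33.5% and 32% of all genes). CLDN5 had a log2 difference of 5.29, the prostaglandin carrier SLCO2A1 4.80, the lipid carrier MFSD2A 2.96, the junction gene OCLN 2.70, and SLC7A5 and SLC3A2, which form the large neutral amino acid carrier, 2.55 and 2.22, while the transferrin receptor TFRC was lower by 0.43. The glucose carrier SLC2A1 had a difference of -0.07 and was not called. SLC7A5 and SLC3A2 were among the 10 leading genes of the PPP1R1B and CA4 cluster. These genes took part in the clustering, so that their counts describe the cells. Over the 30 sums of 5 types in 6 ewes, the genes whose log2 levels followed ABCB1 most closely were ABCG2 (Pearson r = 0.98), VWF, DLL4, CA4 and CLDN5 (r between 0.96 and 0.97). For ABCG2 they were ABCB1, VWF, CA4, LOC101121256 and CLDN5 (r between 0.95 and 0.98). The 30 points share 6 libraries and these correlations are descriptions.

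Lymphatic endothelial-like cells (795 cells, named by CCL21, MMRN1, RELN and PROX1) differed from blood endothelial-like cells in the opposite sense for both pumps. Of 24 ABC genes tested, 5 were higher and 7 lower in lymphatic endothelial-like cells, with 16.6% and 19.5% of all genes in those directions, and with library size alone 6 were higher and 5 lower. The 5 higher genes include ABCG8, ABCA6 and ABCA3, whose calls are given no weight because of the filter, as stated below. The 7 lower genes include ABCB1, whose call is given no weight on the same ground. ABCB1 fell from 498, 299 and 781 CPM in blood endothelial-like cells of HLS1, HLS2 and HLS3 to 27.4, 0 and 27.3 CPM in lymphatic endothelial-like cells, and from 155, 668 and 738 to 1.42, 34.6 and 7.85 in LLS1, LLS2 and LLS3. ABCB1 was low in lymphatic endothelial-like cells and could have passed the filter through blood endothelial-like cells alone. Its log2 difference of -5.45 ± 0.37 is therefore a description. The fall of ABCG2 was smaller, at -3.13 ± 0.26 (edgeR, adjusted p = 7.74e-07), and 99.0 to 224 CPM of ABCG2 remained. In lymphatic endothelial-like cells the ratio of ABCG2 UMI to ABCB1 UMI was 5.0 to 73.0 in the 5 ewes with any ABCB1, above the range of blood endothelial-like cells. These ratios rest on few ABCB1 UMI, and the value of 73.0 belongs to LLS1, with 1.42 CPM of ABCB1. All 7 barrier genes called between both endothelial types were lower in the lymphatic ones, among them MFSD2A at -5.52 and SLCO2A1 at -3.33, while CLDN5, at 0.52, was not called.

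ABCG8, the partner of ABCG5 in sterol export by liver and gut, was found mostly in lymphatic endothelial-like cells, and it was singled out after its values were seen. Its level there was 15.2, 24.0 and 17.4 CPM in HLS and 36.0, 7.48 and 33.0 in LLS, 145 UMI in all, and 6 UMI were found in all blood endothelial-like cells. It passed the filter only through the lymphatic group, in which it was high, so that its call and its fitted difference are given no weight here. Of the 155 UMI of ABCG8 in all retained cells, 151 were in endothelial-like cells, lymphatic ones included. ABCG5 had 1 UMI in the same lymphatic cells, so the pair was not found together. Both genes overlap each other in the RefSeq annotation of assembly ARS-UI_Ramb_v3.0, and whether the counting used strand is not stated in the sources used here.

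**Figure D3:**
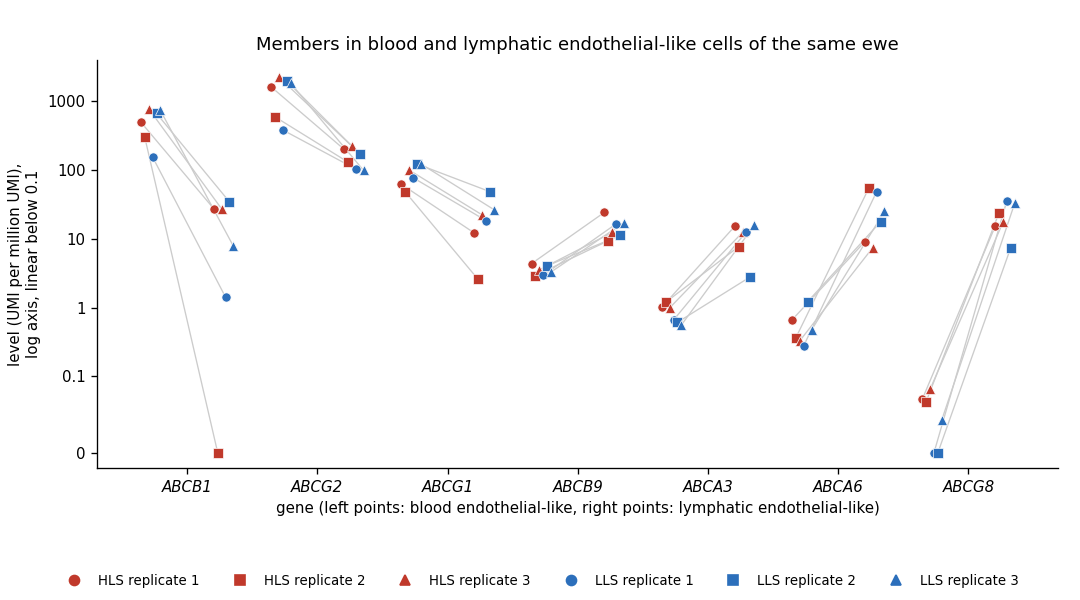
Levels of ABC genes (CPM, log axis that turns linear near 0) in blood endothelial-like (left points) and lymphatic endothelial-like cells (right points) of the same ewe, joined by a line per ewe, HLS in red and LLS in blue. The lines of ABCB1, ABCG2 and ABCG1 go down and those of ABCB9, ABCA3, ABCA6 and ABCG8 go up in each of the 6 ewes.

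Further genes were higher in the lymphatic endothelial-like cells. The log2 difference was 5.65 ± 0.54 for ABCA6, a lipid transporter of little-known substrate, and 3.55 ± 0.40 for the surfactant lipid transporter ABCA3. Both genes were low in blood endothelial-like cells and could have passed the filter through the lymphatic group alone. Their fitted differences are therefore descriptions, and their calls are given no weight. ABCA6 without HLS2 and LLS1 had 4.37 ± 0.53. ABCB9 averaged 15.2 ± 5.43 CPM in lymphatic and 3.53 ± 0.59 in blood endothelial-like cells (1.95 ± 0.25, edgeR, adjusted p = 4.13e-05). The sterol exporter ABCG1 was lower by 2.23 ± 0.23 on the log2 scale, from a blood mean of 89.1 ± 31.5 to 21.8 ± 15.6 CPM, while its companion ABCA1 was at 131 ± 51.1 in lymphatic and 104.5 ± 77.1 in blood endothelial-like cells and was not called (0.55 ± 0.25, edgeR, adjusted p = 0.11). The calls of ABCF1 and ABCC5, both lower, were lost under 8 and 7 of 20 alternatives.

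ABCA1 and ABCG1 export cholesterol, ABCA1 to lipid-poor apolipoprotein A-I and ABCG1 to mature high-density lipoprotein, and both are classic targets of liver X receptors. ABCA1 in endothelial-like cells was 43.8, 25.7 and 156 CPM in HLS and 43.03, 171 and 196 in LLS. HLS1, HLS2 and LLS1 were low and the other 3 ewes high, within both groups. Its mean was 106 ± 76.3 CPM, and those of the types next in order were 85.0 ± 38.1 in immune-like, 48.7 ± 17.1 in stromal-like, then 33.0 ± 17.8 in perivascular-like and last 24.4 ± 14.2 in granulosa-like cells. Neighbours in this order overlapped between ewes. ABCA1 was nonetheless higher in endothelial-like cells (log2 difference 1.16 ± 0.23, edgeR, adjusted p = 1.03e-04) and in immune-like cells (1.35 ± 0.25, edgeR, adjusted p = 3.04e-05) than in the mean of the other types, and lower in granulosa-like cells (-1.49 ± 0.29, edgeR, adjusted p = 7.94e-05) and perivascular-like cells (-0.95 ± 0.29, edgeR, adjusted p = 0.00727).

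ABCG1 was more restricted. In endothelial-like cells it had 61.7, 46.5 and 97.7 CPM in HLS and 74.5, 116 and 121 in LLS, while stromal-like cells had 0.98 to 6.04 CPM. The log2 difference was 3.53 ± 0.23 in endothelial-like cells (edgeR, adjusted p = 6.31e-13) and -3.20 ± 0.37 in stromal-like cells (edgeR, adjusted p = 4.08e-08). Immune-like cells were also higher, by 1.59 ± 0.29 (edgeR, adjusted p = 2.94e-05), at 26.3, 32.1 and 59.9 CPM in HLS and 11.7, 17.2 and 15.4 in LLS. Stromal-like cells thus held ABCA1 at a middle level with little ABCG1, and endothelial-like cells held both.

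Within the endothelium ABCA1 and ABCG1 followed the cluster as well as the ewe. In the SELP cluster ABCA1 averaged 166 ± 71.5 CPM and in the COL15A1 and ESM1 cluster 39.3 ± 41.7, and ABCG1 averaged 128 ± 38.8 and 69.0 ± 36.2. The ABCA1 mean of the COL15A1 and ESM1 cluster is raised by LLS2 and LLS3, at 64.8 and 100 CPM from 15 and 11 UMI. HLS1 had 2 UMI of ABCA1 there, HLS2 had 142 and LLS1 had 562. LLS1 showed the contrast within 1 ewe, with 18.0 CPM of ABCA1 in its COL15A1 and ESM1 cells and 182 in its SELP cells. HLS2 had 7.03 and 71.6 in the same clusters, and its SELP level was the lowest of the 6 ewes. The low ABCA1 of HLS1 was seen in the PPP1R1B and CA4 cluster, at 46.0 CPM, which held 78.77% of its endothelial-like cells.

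**Figure D4:**
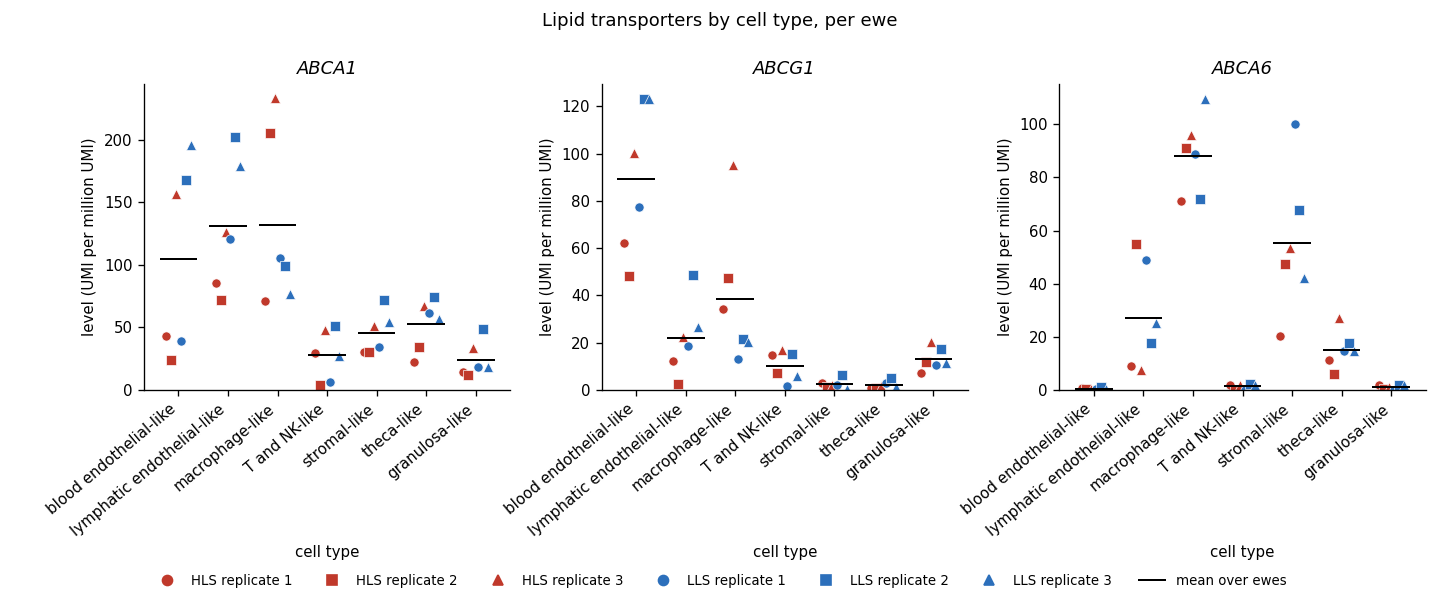
Levels of ABCA1 (left), ABCG1 (middle) and ABCA6 (right) in CPM on linear axes in 7 cell types, with a point per ewe (red for HLS, blue for LLS) and a line at the mean over ewes. ABCA1 is found in all 7 types, ABCG1 has means of 89.1 in blood endothelial-like and 38.6 in macrophage-like cells, and ABCA6 has a mean of 88.1 in macrophage-like cells, the highest of the types shown.

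Among immune-like cells both exporters were higher in macrophage-like than in T and NK-like cells. ABCA1 was 70.9, 206 and 233 CPM in macrophage-like cells of the HLS ewes and 106, 99.5 and 76.7 in those of the LLS ewes, against a mean of 27.7 ± 19.9 in T and NK-like cells. The log2 difference was 2.04 ± 0.32 (edgeR, adjusted p = 1.98e-05), and 1.45 ± 0.23 without HLS2 and LLS1. ABCG1 averaged 38.6 ± 30.3 in macrophage-like and 10.3 ± 6.19 in T and NK-like cells (1.72 ± 0.29, edgeR, adjusted p = 4.49e-05). Of the list of 15 cholesterol efflux and liver X receptor genes, 11 were tested between both immune types and 8 were higher and 1 lower in macrophage-like cells (29.9% and 30.1% of all genes). Genes of this list, and of the peroxisome and translation lists below, were not kept out of the clustering, so that their counts describe the cells. The lysosomal lipase LIPA averaged 563 ± 165 CPM there and 8.34 ± 6.07 in T and NK-like cells, and the receptor NR1H3 had a log2 difference of 2.91. Over all 5 types, the log2 levels nearest to ABCA1 were those of SERPINB1, STX6, FGL2, TRPM7 and LOC101103343, with Pearson r from 0.82 to 0.86 over the same 30 sums, lower than for the pumps.

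ABCA10 and ABCA6 were higher in both stromal-like and immune-like cells. They belong to a cluster of related genes with incompletely known lipid substrates. ABCA10 in stromal-like cells had 2.76, 6.88 and 5.62 CPM in HLS and 17.2, 17.3 and 4.79 in LLS, and its mean in endothelial-like and in granulosa-like cells was 0.19 ± 0.10 and 0.16 ± 0.20. The log2 difference was 3.58 ± 0.27 in stromal-like cells (edgeR, adjusted p = 1.62e-11). Immune-like cells were higher as well, at 2.92, 4.59 and 4.58 CPM in HLS and 5.67, 7.89 and 8.36 in LLS (3.23 ± 0.33, edgeR, adjusted p = 3.03e-09). The small Schwann-like class (106 cells), which was in no test, averaged 43.4 ± 27.0 CPM of ABCA10 from 13 UMI and 64.7 ± 10.6 CPM of ABCA6 from 21 UMI in the 4 ewes with at least 10 of these cells.

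ABCA6 in stromal-like cells was 16.8, 24.5 and 40.8 CPM in HLS and 62.3, 59.2 and 27.0 in LLS (2.54 ± 0.21, edgeR, adjusted p = 1.12e-10). In immune-like cells it was 40.9, 56.8 and 46.7 in HLS and 62.4, 32.3 and 66.9 in LLS (3.42 ± 0.22, edgeR, adjusted p = 2.24e-13). Granulosa-like and endothelial-like cells had at most 1.87 and 2.84 CPM, below every stromal-like and immune-like ewe. Macrophage-like cells had a mean of 88.1 ± 14.7 CPM of ABCA6 against 1.34 ± 1.05 in T and NK-like cells. ABCA6 could have passed the filter of this comparison through macrophage-like cells alone. Its log2 difference of 5.65 ± 0.31 is therefore a description, and its call is given no weight. Perivascular-like cells, at 7.67 to 19.7 CPM, were called higher by 0.66 ± 0.27 (edgeR, adjusted p = 0.0464), and this call was lost under 11 of 20 alternatives.

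ABCA3 was higher in immune-like cells, with 3.65, 9.76 and 9.16 CPM in HLS and 17.4, 3.35 and 7.07 in LLS. All other main types averaged at most 1.49 CPM. ABCA3 could have passed the filter through immune-like cells alone. Its log2 difference of 3.34 ± 0.36 is therefore a description, and its call is given no weight. Its mean in macrophage-like cells was 13.3 ± 6.64 CPM. ABCA5, linked to lysosomal lipids, and ABCA2, a lysosomal lipid transporter, were spread more evenly. ABCA5 averaged between 5.20 CPM in endothelial-like and 13.9 in perivascular-like cells, where the ewes had 9.67, 13.0 and 11.1 in HLS and 13.7, 20.1 and 15.8 in LLS (0.74 ± 0.19, edgeR, adjusted p = 0.00169). Of the 5 genes of this group that were tested, 4 were higher in stromal-like cells and 5 in immune-like cells (30.4% and 31.4% of all genes). None was higher in endothelial-like or granulosa-like cells, where 3 and 4 were lower (32% and 28.9% of all genes). In perivascular-like cells 2 were higher and 2 lower (24.7% and 25.2% of all genes). ABCA3 is among the 5 immune-like genes and the 2 lower perivascular-like genes of these counts, and its calls are given no weight. The immune-like calls of ABCA2 and ABCA5 were lost without HLS3 and without HLS1 or LLS1.

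The 2 stromal-like clusters differed in these genes. A cluster led by SERPINF1, DPT and IGF1 averaged 128 ± 44.3 CPM of ABCA6, 45.9 ± 19.7 of ABCA10 and 34.3 ± 10.7 of ABCC9. A cluster led by PTCH1 and LUM averaged 25.5 ± 9.17, 1.91 ± 0.75 and 3.26 ± 2.56 CPM of the same genes, and theca-like cells 15.2 ± 7.09, 1.28 ± 0.95 and 0.64 ± 0.74. The lowest ewe of the SERPINF1 cluster, HLS1, still had 49.5 CPM of ABCA6, above the highest ewe of the PTCH1 cluster at 37.5 CPM. The large unnamed cluster had 60.0 ± 21.9 of ABCA6 and 13.3 ± 5.68 of ABCA10, between both stromal-like clusters.

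ABCC9 encodes SUR2, the regulatory subunit that joins the pore KCNJ8 (Kir6.1) in the ATP-sensitive potassium channel of vascular muscle and pericytes. Its level in perivascular-like cells was 96.7, 148 and 125 CPM in HLS and 310.2, 173 and 184 in LLS. The means of the other types were 7.96 ± 6.07 in stromal-like, 3.59 ± 3.15 in granulosa-like, 2.00 ± 2.71 in endothelial-like and 0.72 ± 0.56 CPM in immune-like cells. Every perivascular-like ewe therefore lay above the highest value of any other type, 16.8 CPM, and the log2 difference was 6.07 ± 0.31 (edgeR, adjusted p = 4.79e-15). KCNJ8, which was among the pericyte markers used for naming and is given as a description, had a mean of 152 ± 49.1 CPM in perivascular-like cells and at most 5.04 CPM in any ewe of the other 4 types. The endothelial-like level of ABCC9 was highest in LLS1 (7.26) and HLS2 (2.497), and its difference of -2.07 ± 0.50 became -3.55 ± 0.61 without them.

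Within the perivascular-like cells ABCC9 lay with the pericytes. In pericyte-like cells it was 131, 201 and 275 CPM in HLS and 366, 218 and 221 in LLS. In smooth muscle-like cells of the same ewes it was 27.9, 8.12 and 11.03, and 18.5, 25.3 and 36.6. The groups did not overlap. ABCC9 could have passed the filter of this comparison through pericyte-like cells alone. Its log2 difference of 3.47 ± 0.27 is therefore a description, and its call is given no weight. ABCC9 was the only ABC gene of 12 tested that was higher, with 20.8% of all genes higher and 21.1% lower. DESeq2 called 2 higher and 2 lower. Under the 20 alternatives the log2 differences of ABCC9 lay from 3.08 to 4.42. KCNJ8 took 186, 249 and 285 CPM in pericyte-like cells of the HLS ewes and 281, 173 and 126 in those of the LLS ewes. In the order of ABCC9, LLS1 was first and HLS1 last, an order that KCNJ8 did not share.

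**Figure D5:**
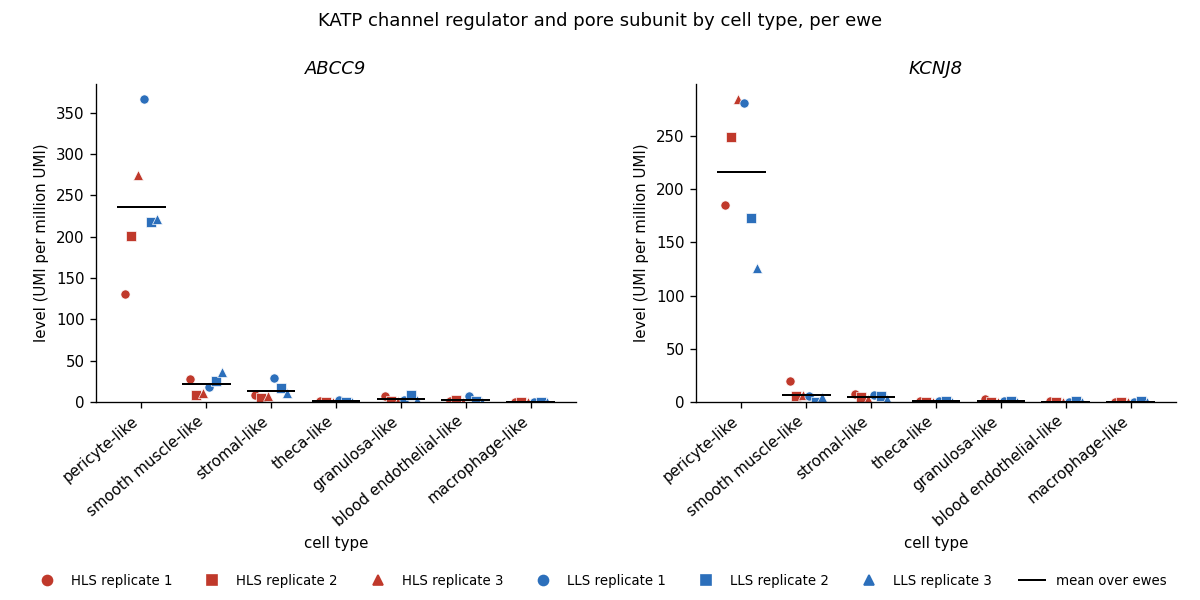
Levels of ABCC9 (left) and KCNJ8 (right) in CPM on linear axes in 7 cell types, with a point per ewe (red for HLS, blue for LLS) and a line at the mean over ewes. In pericyte-like cells the lowest ewe has 131 CPM of ABCC9 and 126 of KCNJ8, above every ewe of the other types shown.

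The 2 lower genes between pericyte-like and smooth muscle-like cells were the endothelial pumps, ABCB1 at -1.83 ± 0.33 and ABCG2 at -1.25 ± 0.31 on the log2 scale. CLDN5 averaged 12.6 ± 9.43 CPM in pericyte-like and 29.2 ± 31.5 in smooth muscle-like cells, and both pump calls were lost when the cells were clustered at other resolutions. Over the 30 sums the log2 levels nearest to ABCC9 were those of KCNJ8 (Pearson r = 0.94), ETV1, PLEKHH3, ARHGAP1 and POSTN (r between 0.90 and 0.91). ABCD2 had few UMI in perivascular-like cells, at 1.84, 0.74 and 0 CPM in HLS and 1.49, 3.72 and 2.26 in LLS, 21 UMI in all. It was called higher there, but the contrast includes granulosa-like cells at 0 UMI, so that its fitted difference is not given, and 5 of the 6 ewes lay below the lowest immune-like ewe at 2.92 CPM. ABCB6 had 13.8, 12.3 and 6.28 CPM in HLS and 14.0, 9.67 and 11.7 in LLS (0.81 ± 0.17, edgeR, adjusted p = 3.53e-04).

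The peroxisomal members of family D carry very long chain and branched fatty acids as CoA esters into peroxisomes. ABCD2 was low and had its highest mean in immune-like cells, with 2.92, 4.02 and 4.01 CPM in HLS and 3.78, 9.09 and 4.50 in LLS. It could have passed the filter through immune-like cells alone, so that its calls are given no weight. Granulosa-like cells had 0 UMI in all 6 ewes. Against the limit that a count of 0 allows over all granulosa-like UMI (3 counts, 0.105 CPM), the pooled immune-like level of 5.34 CPM was at least 50.9-fold higher, and this limit covers counting error only. Macrophage-like cells held 62 of the 80 immune-like UMI, a mean of 7.32 ± 2.95 CPM, and T and NK-like cells held none. ABCD3, the carrier of branched and dicarboxylic acids, averaged between 18.7 and 24.9 CPM over the 5 main types. Its calls, higher by 0.22 in endothelial-like and lower by 0.26 in granulosa-like cells on the log2 scale, were small. Of the list of peroxisome genes, 9 were tested, and 5 were higher and 2 lower in granulosa-like cells (29.9% and 28.9% of all genes), and 3 were higher in theca-like than in other stromal-like cells, a share near that of all genes (24.5%).

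Theca-like cells, which make androgens from cholesterol, were compared with the other stromal-like cells. Of 23 ABC genes tested, 6 were higher and 8 lower in theca-like than in the other stromal-like cells (24.5% and 26.3% of all genes), and 3 and 10 with library size alone. The lower genes include ABCC9 and ABCA10, whose calls are given no weight because of the filter, as stated below. ABCB6, linked to porphyrin transport, was 10.2, 14.1 and 16.2 CPM in theca-like cells of the HLS ewes and 21.3, 13.3 and 18.7 in those of the LLS ewes, above every other stromal-like value, of which the highest was 8.40 (1.195 ± 0.15, edgeR, adjusted p = 3.93e-05). ABCB8, a mitochondrial transporter linked to iron, was called higher by 0.40 ± 0.14, and this call was lost under 10 of 20 alternatives. ABCB10, the haem-related gene of the inner membrane, had -0.08 ± 0.14 and was not called. Across the 5 main types, ABCB6 was lower in granulosa-like and immune-like cells, by 0.65 and 1.65 on the log2 scale.

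The leukotriene pump ABCC1 was higher in theca-like cells as well. It was 21.3, 42.3 and 51.0 CPM in HLS and 41.7, 25.2 and 60.2 in LLS, against a mean of 23.5 ± 4.11 in the other stromal-like cells (0.85 ± 0.14, edgeR, adjusted p = 2.46e-04). HLS1 and LLS2 were the lowest ewes and overlapped the stromal-like range of 18.6 to 29.3. Over all stromal-like cells it had 19.7, 36.5 and 38.2 in HLS and 29.5, 22.5 and 44.6 in LLS (1.27 ± 0.13, edgeR, adjusted p = 5.28e-09). Of the list of 12 haem and iron-sulphur genes, all tested, 8 were higher and none lower in theca-like cells (24.5% and 26.3% of all genes). Among them was FDX1, the electron donor of the mitochondrial steroid enzymes, with a log2 difference of 3.62. FDX1 was also among the 10 leading genes of the theca-like cluster. The genes of this list were not kept out of the clustering, so that their counts describe the cells. The genes lower in theca-like cells were ABCC9, ABCA10, ABCA6, ABCC3, ABCC10, ABCA5, ABCG2 and ABCD4. ABCC9 and ABCA10 were low in theca-like cells and could have passed the filter through the other stromal-like cells alone. Their log2 differences of -4.10 ± 0.35 and -3.55 ± 0.29 are therefore descriptions, and their calls are given no weight. When expression was centred per ewe before clustering, 2640 cells in place of 1552 were named theca-like, and the calls of ABCB6, ABCC1, ABCF3 and ABCB8 were lost.

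Granulosa-like cells had a single ABC gene above the other types. ABCC3 was 10.99, 4.01 and 5.89 CPM in HLS and 5.83, 15.9 and 7.10 in LLS (1.09 ± 0.27, edgeR, adjusted p = 0.00108). These values overlapped the endothelial-like range of 3.76 to 10.9. The call was lost when cells were named one by one. ABCC3 was uneven among the 3 largest of the 4 granulosa-like clusters, where a cluster led by GCG, TIMP1 and PLIN2 averaged 15.9 ± 5.83 CPM, a cluster led by IGFBP2 and FST 3.14 ± 1.08 and a cluster led by INHA and INHBA 2.55 ± 2.51. The first cluster, led by genes that include the lipid droplet gene PLIN2, also had the most ABCA1 (47.3 ± 27.4 CPM against 14.98 ± 6.01 and 15.8 ± 13.6) and ABCG1 (22.8 ± 11.3 against 9.47 ± 5.17 and 5.75 ± 5.03). The ewes of these 3 clusters overlapped for ABCA1 and ABCG1, and for ABCC3 every ewe of the first cluster lay above every ewe of the other pair.

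The soluble members of families E and F differed little between types. ABCE1, the ribosome recycling factor, averaged 66.2 ± 7.01 CPM in endothelial-like, 58.9 ± 5.89 in perivascular-like, 57.4 ± 8.09 in granulosa-like and 54.0 ± 5.79 in stromal-like cells, and its lowest mean was 39.8 ± 2.96 in immune-like cells. It was called higher in endothelial-like (0.39 ± 0.07, edgeR, adjusted p = 4.6e-05) and lower in immune-like cells (-0.30 ± 0.08, edgeR, adjusted p = 0.00248). ABCF1, which acts in translation initiation, was called lower in stromal-like cells (-0.51 ± 0.09, edgeR, adjusted p = 4.33e-05) and higher in immune-like cells (0.33 ± 0.09, edgeR, adjusted p = 0.0027). ABCF3 was called in none of the 5 types, with log2 differences from -0.19 to 0.13. Of 8 translation and ribosome recycling genes, 4 were higher and 1 lower in endothelial-like cells (33.5% and 32% of all genes).

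Between the litter size groups no ABC gene passed in any of the 5 main types. With edgeR, 27, 20, 25, 18 and 21 ABC genes were tested in endothelial-like, granulosa-like, stromal-like, perivascular-like and immune-like cells, none had an adjusted p under 0.05, and DESeq2 called none either. Of all genes tested, 0% were called in each of the first 4 types and 0.0097% (1 gene) in immune-like cells. At an unadjusted p under 0.05 the ABC genes were 0, 0, 3, 1 and 2 in the 5 types, where 1.41%, 4.69%, 4.85%, 3.11% and 5.19% of all genes lay under it.

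The lowest unadjusted p belonged to ABCG1 in immune-like cells, where all 3 HLS ewes (26.3 to 59.9 CPM) lay above all 3 LLS ewes (11.7 to 17.2). The log2 difference of HLS over LLS was 1.43 ± 0.33 (edgeR, adjusted p = 0.517). With no filter on low counts the same gene passed (edgeR, adjusted p = 0.00291), and it passed under no other of the alternatives run. ABCA1 in immune-like cells had 54.8, 128 and 138 CPM in HLS and 75.98, 56.2 and 57.2 in LLS, which overlapped (0.77 ± 0.27, edgeR, adjusted p = 0.902). ABCC9 in perivascular-like cells lay in all HLS ewes (96.7 to 148) below all LLS ewes (173 to 310.2), with -0.80 ± 0.25 (edgeR, adjusted p = 0.999), and next there was ABCA1 with -0.70 ± 0.38. The pericyte-like cells, in which ABCC9 was high, were 212 of 390, 293 of 603 and 66 of 363 perivascular-like cells in HLS and 297 of 517, 215 of 317 and 300 of 487 in LLS. Within pericyte-like cells the groups overlapped (131 to 275 CPM in HLS and 218 to 366 in LLS). In stromal-like cells ABCD3 had -0.47 ± 0.18 and ABCC9 -1.36 ± 0.54 (both edgeR, adjusted p = 0.795), and ABCC9 had -0.73 ± 0.55 without HLS2 and LLS1.

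In endothelial-like cells ABCG1 had -0.50 ± 0.30 and ABCG8 -0.92 ± 0.58, and in granulosa-like cells ABCB6 had 0.75 ± 0.50 and ABCD4 -0.35 ± 0.25, none of them called. For both pumps in endothelial-like cells the HLS and LLS ranges overlapped almost entirely, with means of 513 ± 235 and 490.5 ± 303 CPM for ABCB1 and of 1459 ± 815 and 1319 ± 823 CPM for ABCG2. HLS2 and LLS1, 1 ewe of each group, set the lower end of both ranges.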

How the data were processed

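Droplet libraries (10x Chromium, 3' v3) of 6 ewes, 3 HLS and 3 LLS, were used. Per the labels and the methods of the study, the authors made the deposited UMI counts per gene and barcode with Cell Ranger 5.0.0, which aligns with STAR; genome build, annotation and use of strand are not given in the sources used here. The counts are raw, with no normalization. Genes deposited under other names than ABC symbols were not analysed here as members, and no sequences are shown. Single-gene values of some members are not reported here, although counts over all members include them.

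Barcodes were kept with at least 200 genes, at least 1000 UMI, log10 genes over log10 UMI of at least 0.7, at most 10% mitochondrial and at most 5% haemoglobin UMI, which left 38464. Doublets were scored against 2 simulated doublets per cell, and the highest 0.8% per 1000 cells of each library, 2007 in all, were removed, so that their number was set and not estimated. Counts were log-normalized, and 2000 variable genes without the ABC genes gave 30 principal components, a graph of 20 neighbours and 29 Leiden clusters (resolution 0.8). A cluster was named from marker lists if its marker score was at least 0.5 and led the next lineage by 0.3, limits set after the clusters were seen. Types with under 10 cells in an ewe were left out for that ewe. Naming depended on these lists, and a difference from the names of the study may come from that.

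Raw counts were summed per ewe and type and tested with edgeR's quasi-likelihood test (filterByExpr, TMM, ewe as a block for types, no block between HLS and LLS), with Benjamini-Hochberg adjustment over all genes tested and a threshold of 0.05. Each main type was contrasted with the average of the other 4. On simulated data with 200 changed genes, 89.5% were recovered for HLS against LLS in endothelial-like cells (14872 genes, 5 false calls) and 88% for pericyte-like against smooth muscle-like cells (7495 genes, 12 false calls). The simulation gave all changed genes the same size of change, all genes the same dispersion and the ewes no differences of their own. It checks the code, and its shares do not tell how many real differences between HLS and LLS would be found. Values per ewe were given for ABCB1, ABCG2, ABCC9, ABCA1 and ABCG1, and for up to 4 further members called higher in a type with the largest log2 difference; the 5 nearest genes were taken for ABCC9, ABCB1, ABCG2 and ABCA1, and up to 2 members per type with the smallest unadjusted p for HLS against LLS. Values of other members, such as those of the finer types and clusters and of ABCG8, were chosen after they were seen. The members, lists and markers were chosen with earlier results of these data known.

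Alternatives were DESeq2, its size factors in edgeR, library size alone, no filter, no ewe block, each ewe left out, doublets kept, a mitochondrial limit of 20%, resolutions of 0.4 and 1.6, centring per ewe, ABC genes kept in clustering and cells named one by one. Added after the data were seen were the largest unnamed cluster joined to stromal-like cells, and both HLS2 and LLS1 left out. Limits from a count of 0 use 3 counts and cover counting error only. Software was Python 3.11.15, numpy 2.4.6, scipy 1.17.1, pandas 2.3.3, scikit-learn 1.9.0, igraph 0.11.9, leidenalg 0.10.2, matplotlib 3.10.9, R 4.3.3, edgeR 4.0.16, DESeq2 1.42.0 and limma 3.58.1.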

Additional observations from a re-analysis of the deposited data

Results flagged for a closer look

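In 26 groups of 6 ewes, 1 group for each ABC gene in the type where its mean was highest, the most extreme ewe was compared with its nearest neighbour relative to the whole range, and 2 groups passed Dixon's limit, which chance gives in about 1 in 20 groups. ABCD2 in immune-like cells was 9.09 CPM in LLS2, and the nearest other ewe had 4.50 (ratio 0.744). ABCD3 in perivascular-like cells was 33.5 CPM in HLS3, and the nearest other ewe had 24.5 (ratio 0.743).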

How the results depend on the processing

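Of 460 alternative values of the 23 counts of ABC genes called, 418 lay within 1.5 times the reported count, and of 2375 alternative values of 119 log2 differences, 2207 kept their direction and their side of the threshold; the cause of the changes was not tested. With DESeq2 the lower genes were 8 in place of 5 in endothelial-like cells, the lower genes of macrophage-like against T and NK-like cells 1 in place of 2, and the higher genes of pericyte-like against smooth muscle-like cells 2 in place of 1. With library size only, 2 genes were higher in granulosa-like cells, 6 higher and 8 lower in immune-like cells (10 and 5 with TMM), 3 higher in theca-like cells (6 with TMM), and 5 higher and 1 lower in macrophage-like cells (3 and 2 with TMM). Library size only moved the median log2 difference of all genes to -0.36 in immune-like, 0.13 in granulosa-like and 0.12 in perivascular-like cells, and to -0.14 for theca-like and 0.14 for macrophage-like cells. With no filter on low counts, 4 were higher in perivascular-like cells (7 with the filter), 14 in macrophage-like cells, 4 in pericyte-like cells, and 1 gene, ABCG1, differed between HLS and LLS in immune-like cells (edgeR, adjusted p = 0.00291). With cells named one by one, 3 were lower in immune-like cells, 0 lower in macrophage-like cells, and 5 higher and 1 lower in pericyte-like cells. Centring per ewe gave 1 higher and 3 lower in theca-like cells (6 and 8 without it) and 2 higher and 0 lower in pericyte-like cells. In the latter comparison further settings gave 2 higher with doublets kept; 2 higher and 1 lower with a mitochondrial limit of 20%; 3 higher and 0 lower at resolution 0.4; 2 higher and 0 lower at resolution 1.6; and 2 higher and 0 lower with ABC genes kept in clustering, while no ewe block gave 1 lower. Doublets kept gave 5 higher in macrophage-like cells, and leaving out both HLS2 and LLS1, chosen after seeing the data, 1 lower.

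Leaving out 1 ewe at a time gave 4 to 7 higher in perivascular-like cells (4 without HLS1 or without LLS3), 1 to 2 lower in macrophage-like cells (1 without HLS2 or LLS1), and 1 to 3 higher (3 without HLS1, 2 without HLS3 or LLS2) and 1 to 2 lower in pericyte-like cells (1 without HLS1 or LLS2). No log2 difference changed sign when 1 ewe was left out, and 19 calls were lost without at least 1 of the ewes: ABCD3 in endothelial-like cells, ABCD3, ABCA2 and ABCD2 in granulosa-like cells, ABCC10 in stromal-like cells, ABCB1, ABCB8, ABCA6 and ABCB10 in perivascular-like cells, ABCA2, ABCA5 and ABCC10 in immune-like cells, ABCF3, ABCB8, ABCD4 and ABCC10 in theca-like cells, ABCB10 in macrophage-like cells, and ABCC5 and ABCF1 in lymphatic endothelial-like cells. The sign of ABCG2 in theca-like against stromal-like cells turned to 0.36 with cells named one by one. For pericyte-like against smooth muscle-like cells ABCB1 turned to 0.14 at resolution 0.4 and 0.10 at resolution 1.6, and ABCG2 to 0.050 at resolution 0.4, 0.044 at resolution 1.6 and 0.046 with cells named one by one. A single ewe moved by over 1.5-fold the called log2 differences of 3 genes: ABCG8 and ABCA3, whose calls are given no weight, and ABCG1. In perivascular-like cells ABCA3 was -4.63 without HLS3 and ABCG1 was -2.45 without HLS1.

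With the replicate number as a block, 0 ABC genes were called between HLS and LLS in each of the 5 types. Ewes with the same number came from different animals, and the correlations of their deviations from the group means ran from -0.37 to 0.305, so that the numbers do not pair them. Genes with few UMI, such as the 14 that did not pass the filter, are limited by depth.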

Other observations

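Epithelial-like cells (312 cells, 224 of them from LLS2, with at least 10 cells in 4 ewes) formed no part of the comparisons. Their ABCG1 level was 40.8 CPM in HLS3 and 161, 88.7 and 91.3 CPM in LLS1, LLS2 and LLS3, and their ABCC3 level was 30.6, 7.004, 31.7 and 45.7 CPM in the same order. CFTR, the chloride channel of secretory epithelia and an ABC protein under another name, was 10.2, 30.4, 23.1 and 34.2 CPM there, and its mean in the 5 main types was at most 1.73 CPM. Some of these levels rest on few UMI. In the same order of ewes ABCG1 had 4, 69, 165 and 16 UMI, ABCC3 had 3, 3, 59 and 8, and CFTR had 1, 13, 43 and 6.

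TAP1 and TAP2, the ABC proteins that load peptides for antigen presentation, also carry names that the symbol rule does not take. TAP1 averaged 111 ± 13.0 CPM in endothelial-like cells and 15.7 ± 3.65 in granulosa-like cells (SD, n = 6), and the log2 difference from the other types was 1.93 ± 0.11 in endothelial-like cells (edgeR, adjusted p = 2.17e-14), 1.77 ± 0.12 in immune-like cells (edgeR, adjusted p = 4.4e-13) and -1.72 ± 0.15 in granulosa-like cells (edgeR, adjusted p = 2.1e-10). T and NK-like cells had 154 ± 23.2 and macrophage-like cells 58.8 ± 12.4 CPM of TAP1. Lymphatic endothelial-like cells were lower than blood endothelial-like cells by 2.24 ± 0.14 for TAP1 and 1.29 ± 0.16 for TAP2 on the log2 scale (both edgeR, adjusted p = 6.74e-08 and 3.23e-05).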
